A study of Mus musculus with 7 samples.

Results

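Protein tyrosine phosphatase genes were followed in 5 mouse B-cell acute lymphoblastic leukaemia (B-ALL) libraries. The set holds the 36 entries, of 24726 in each expression table, whose symbol is Ptpn followed by a number or Ptpr followed by a letter, without Ptpn6 and Ptpn22. Polyadenylated RNA was sequenced from leukaemias on a C57BL/6 background. The 3 Pax5-Etv6 B-ALL libraries have the genotype Cdkn2ab+/-Pax5Etv6/+, heterozygous for Pax5-Etv6 and for loss of Cdkn2ab, and were made from whole lymph node taken ex vivo. The 2 control B-ALL libraries have the genotype Trp53-/- NrasG12D/+Retroviral-Myc and were made from whole bone marrow after short-time culture. No animal age is given, and whether each library is a different animal is not stated, so the p-values cover no more than the variation among these 5 samples, which may be technical. Genotype, tissue, culture and the strand-specific cDNA protocol, which is named for the Pax5-Etv6 libraries alone, all follow the groups and cannot be told apart. Because the tissue was unsorted bulk material, fewer cells of a type and less RNA per cell cannot be told apart either.

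These enzymes remove phosphate from tyrosine residues and so oppose, and in some cases enable, signalling by tyrosine kinases. Receptor-type members (Ptpr) span the membrane, while non-receptor members (Ptpn) are placed in the cell by SH2, FERM, PEST or other domains next to a catalytic domain. In lymphocytes CD45 (Ptprc) removes the inhibitory phosphate of Src-family kinases and thereby permits antigen-receptor signalling, whereas TC-PTP (Ptpn2) and PTP1B (Ptpn1) act on Janus kinases, and SHP2 (Ptpn11) promotes signalling through RAS.

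Recovered sequencing depth, a lower bound, was 20110584 to 30103139 reads in the Pax5-Etv6 libraries and 28740334 and 50994548 reads in the controls. Trp53 stood at 454 to 490 TPM (a transcript level scaled by gene length and by the library's total) in the Pax5-Etv6 libraries and at 11.3 and 20.5 TPM in the controls, whose genotype is Trp53-/-. Of 9 B-lineage markers none was at 0 in all libraries, and their summed levels were 6778 to 10738 TPM in Pax5-Etv6 and 2573 to 3406 TPM in control B-ALL. Summed markers of other cells were higher in each Pax5-Etv6 library than in the controls: 10 macrophage markers summed to 177 to 598 TPM against 26.0 and 72.5 TPM, 8 neutrophil markers to 34.2 to 253 against 0.586 and 0.622 TPM, and 7 stromal markers to 79.7 to 767 against 1.28 and 7.87 TPM. The 10 T-cell markers summed to 15.0 to 204 TPM against 5.75 and 8.46 TPM, with 3 of 4 tested called higher (Cd4, Cd5 and Thy1). Most of that sum was Lat and Thy1, and the defining Cd3e, Cd3d and Cd3g reached at most 0.637 TPM in any library. Over all genes, Pax5-Etv6 replicate 1 lay apart from replicates 2 and 3 on the second principal component (49.9 against -23.1 and -23.2, with 10.4% of the variance).

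The stretches of 150 bases before the start site of 4 members are shown because they belong to the most abundant receptor-type member of Pax5-Etv6 B-ALL and to 3 members that differed between the groups with stable calls. They come from RefSeq (GRCm38.p6), are written 5′ to 3′ on the gene's strand, and have each CpG in capitals.
Ptprc, more upstream of 2 starts, chr1:138175306-138175455, minus strand: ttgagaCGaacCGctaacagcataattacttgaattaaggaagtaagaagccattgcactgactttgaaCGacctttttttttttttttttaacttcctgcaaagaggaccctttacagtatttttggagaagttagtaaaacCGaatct
Ptpn18, chr1:34459596-34459745, plus strand: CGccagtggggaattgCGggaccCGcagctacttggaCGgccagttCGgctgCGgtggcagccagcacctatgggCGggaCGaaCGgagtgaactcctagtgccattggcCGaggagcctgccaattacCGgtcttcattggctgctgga
Ptpn11, chr5:121191398-121191547, minus strand: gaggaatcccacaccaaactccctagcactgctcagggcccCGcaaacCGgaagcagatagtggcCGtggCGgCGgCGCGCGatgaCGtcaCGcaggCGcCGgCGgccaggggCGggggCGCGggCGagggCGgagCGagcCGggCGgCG
Ptpn4, chr1:119837072-119837221, minus strand: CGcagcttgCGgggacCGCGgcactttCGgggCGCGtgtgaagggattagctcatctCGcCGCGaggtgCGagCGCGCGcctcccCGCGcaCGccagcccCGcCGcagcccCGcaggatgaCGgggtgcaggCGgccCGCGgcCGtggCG

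The Ptprc stretch held 4 CpG, against 11 in Ptpn18, 22 in Ptpn11 and 26 in Ptpn4. Of 32851 RefSeq promoters, 28.8% had 10 or more CpG in the same window. A promoter was matched for 30 of the 36 members, 13 of them among the 16 members expressed well enough to be tested. Counted per promoter in the same way, 53.5% of the members' 43 promoters had 10 or more CpG. By gene, taking the start with the most CpG, 11 of the 13 had 10 or more, and so had 11 of the 17 matched members with little or no expression. CpG-rich starts were thus found both in members that were expressed and in members that were not: Ptprt, listed at 0 TPM in all libraries, had 28 CpG. The letters CCGGAAG, an ETS-type motif, were searched on both strands of the 300-base promoters. They occurred in 8.86% of all promoters and in a promoter of 5 of the 30 matched members. The share is per promoter and the count is per gene, so they are not on the same basis. Ptpn1, Ptpn11 and Ptpn23 were the tested members with such a match, and they did not share a direction between the groups.

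Of the 36 members, 16 reached 1 TPM in at least 2 libraries and were tested, 6 of 21 receptor-type and 10 of 15 non-receptor genes. In Pax5-Etv6 B-ALL, 5 were higher (Ptpre, Ptpn18, Ptpn21, Ptpn1 and Ptpra), 5 were lower (Ptpn12, Ptpn4, Ptprs, Ptpn2 and Ptpn11) and 6 were not called by limma, with a threshold of 0.05 on p-values adjusted by Benjamini-Hochberg across the whole table. The 10 calls are 62.5% of the members tested. Over the 11805 genes tested, 51.7% were called, 21.9% higher and 29.7% lower, so the members' share is near the background and is not a result about phosphatases as a group. Where the mean was 10 TPM or more in either group, 9 of 14 members and 56.9% of genes were called. With voom on recovered reads, 6 members were higher and 4 lower, against 53.9% of genes called in either direction. The median log2 fold change was 0.07 over the tested members and -0.11 over all genes tested.

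Groups did not overlap in 14 of the 16 members, 7 in each direction, against 72.2% of all genes tested (32.1% with Pax5-Etv6 higher, 40.1% with it lower). Fewer members were called when a control library was left out: 2 higher and 3 lower without control replicate 1, and 1 higher and 4 lower without control replicate 2. These are 31.2% of the 16 members in both fits, and over all genes tested 29.6% and 45.6% were called. In those fits the remaining control is assumed to vary like the Pax5-Etv6 libraries.

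**Figure D1:**
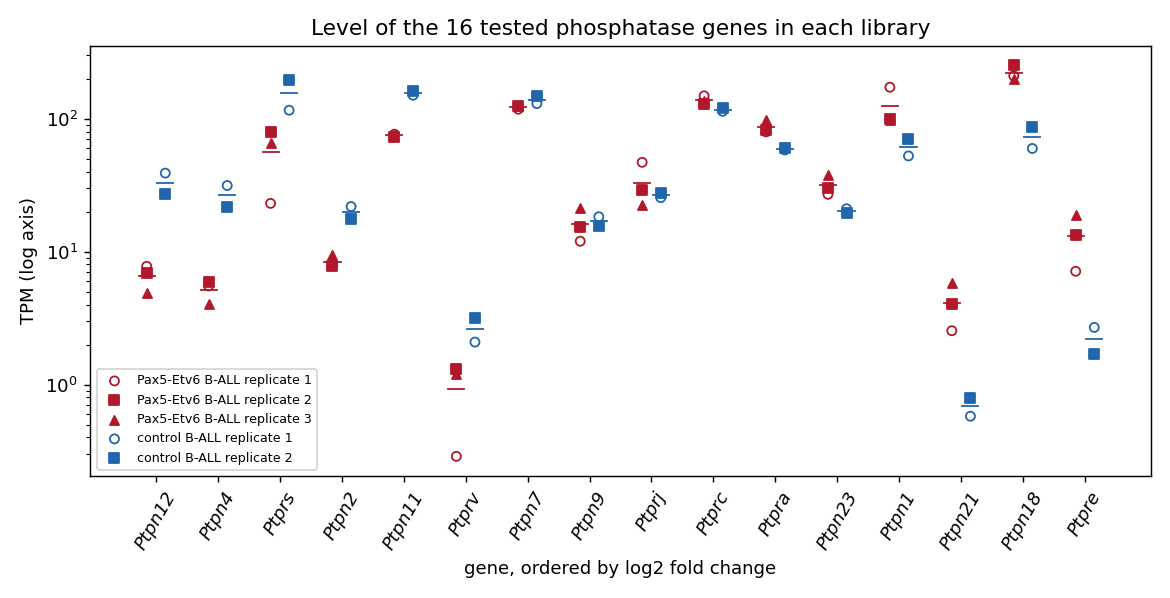
Level of each tested phosphatase gene in TPM (log axis), with 1 point per library, red for the 3 Pax5-Etv6 B-ALL and blue for the 2 control B-ALL libraries, and short lines at the group means. Ptpn12 and Ptpn4 lie below both controls in all 3 Pax5-Etv6 libraries, and Ptpn18 and Ptpre lie above them.

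The leading members of the set differed between the groups. In each Pax5-Etv6 library Ptpn18 was the most abundant member by TPM, while Ptpn11 led in control replicate 1 and Ptprs in control replicate 2. The summed level of all 36 members was 945, 956 and 923 TPM in Pax5-Etv6 replicates 1, 2 and 3 and 843 and 977 TPM in the controls, so the groups overlapped in the sum. The 5 most abundant members made up 67.5% to 77.0% of it.

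Within this set, which leaves out Ptpn22, the non-receptor phosphatases with a PEST domain moved in opposite directions. Ptpn18, which binds the kinase Csk, had 209.8, 251 and 199.8 TPM in Pax5-Etv6 replicates 1, 2 and 3 and 59.7 and 86.0 TPM in the controls. All 3 Pax5-Etv6 values lay well above both controls, and the difference was larger than the spread within groups (log2 fold change 1.60 ± 0.20 SE, limma adjusted p = 0.00172). Log2 fold changes here and below are Pax5-Etv6 minus control of log2(TPM + 1), so that changes of scarce transcripts are compressed. PTP-PEST, encoded by Ptpn12, acts on focal-adhesion proteins such as p130Cas, and had 7.76, 6.85 and 4.89 TPM against 38.9 and 26.9 TPM. Its highest Pax5-Etv6 value was far under the lower control (-2.17 ± 0.29, limma adjusted p = 0.00207). Both calls were kept under every alternative tried, with adjusted p of at most 0.0124 for Ptpn18 and 0.0218 for Ptpn12.

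The closely related Ptpn1 and Ptpn2 also differed in direction. Ptpn1, the endoplasmic-reticulum enzyme PTP1B that acts on the insulin receptor and JAK2, had 172, 100.0 and 98.4 TPM in Pax5-Etv6 against 52.4 and 70.9 TPM in control B-ALL. Replicate 1 was the highest, and the groups did not overlap (0.96 ± 0.29, limma adjusted p = 0.0319). That call was lost without control replicate 1 (adjusted p = 0.195) or 2 (0.0583), in a range of 0.0280 to 0.195 over the alternatives, and also with no filter on low values (0.0673) and without the mean-variance trend (0.0505).

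Ptpn2, the phosphatase TC-PTP that acts on JAK1 and JAK3, had 7.82, 7.82 and 9.47 TPM against 21.8 and 17.6 TPM. All Pax5-Etv6 values were lower than both controls (-1.14 ± 0.24, limma adjusted p = 0.0093), a call lost without control replicate 1 (adjusted p = 0.0555, with 0.00366 the lowest under other settings).

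SHP2, encoded by Ptpn11, is the SH2-domain phosphatase that couples receptors to RAS and ERK. It had 76.4, 72.9 and 75.2 TPM in Pax5-Etv6 and 150.1 and 161 TPM in control B-ALL. Replicates lay close together within each group, and the mean was 74.8 ± 1.78 TPM (SD, n = 3) against 156 ± 7.85 TPM (SD, n = 2). The difference (-1.05 ± 0.13, limma adjusted p = 0.00176) was called under every alternative, with adjusted p of 0.0015 to 0.0105.

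The FERM-domain enzymes, which attach to the membrane and cytoskeleton, split as well. Ptpn4, which also has a PDZ domain, had 5.51, 5.92 and 4.07 TPM against 31.4 and 21.6 TPM. It was far lower in each Pax5-Etv6 library than in either control (-2.15 ± 0.29, limma adjusted p = 0.00204) and was called under every alternative. Ptpn21, a relative that binds Src, was scarce, at 2.54, 4.05 and 5.82 TPM against 0.578 and 0.797 TPM. The groups did not overlap (1.56 ± 0.36, limma adjusted p = 0.0126), but the call was lost without control replicate 1 (adjusted p = 0.0953) or 2 (0.0566), in a range of 0.00419 to 0.0953. Its reads numbered 158, 211 and 438 in the Pax5-Etv6 libraries and 69 and 56 in the controls. The size of its change depends on the scale: it was 0.67 with a pseudocount of 5 TPM, 2.37 with 0.1 TPM and 2.71 with voom on recovered reads, each called (adjusted p = 0.0221, 0.0102 and 0.00735). The other FERM-domain members, Ptpn3, Ptpn13 and Ptpn14, reached at most 0.114 TPM in any library.

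Other non-receptor members did not pass the test. Ptpn7, the haematopoietic phosphatase of ERK and p38 MAP kinases, had 118, 124 and 124 TPM against 129.8 and 148 TPM (-0.18 ± 0.14, limma adjusted p = 0.291). It was thus abundant in both groups, with the Pax5-Etv6 values just under the controls. Ptpn23, which works with the ESCRT machinery of endosomes, had 27.0, 30.1 and 37.7 TPM against 21.0 and 19.6 TPM (0.60 ± 0.21, limma adjusted p = 0.055). All Pax5-Etv6 values were higher, and the gene was called under 7 of 16 alternatives, including without Pax5-Etv6 replicate 1 (adjusted p = 0.0398, in a range of 0.0151 to 0.171). Ptpn9, a phosphatase with a Sec14 domain found on secretory vesicles, had 12.0, 15.2 and 21.4 TPM against 18.3 and 15.6 TPM, so the groups overlapped (-0.10 ± 0.29, limma adjusted p = 0.797).

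Among receptor-type members, the R4 pair Ptpra and Ptpre, short-ectodomain enzymes of which Ptpra activates Src, was higher in Pax5-Etv6 B-ALL. Ptpre had 7.11, 13.3 and 18.8 TPM against 2.69 and 1.71 TPM. Even its lowest Pax5-Etv6 value, in replicate 1, was above both controls (2.06 ± 0.43, limma adjusted p = 0.00864). This call was lost without control replicate 2 (adjusted p = 0.0543, with 0.00187 the lowest under other settings), and a pseudocount of 5 TPM gave a change of 1.28. Ptpra had 79.5, 82.7 and 97.2 TPM against 58.1 and 60.2 TPM, a small difference without overlap (0.53 ± 0.16, limma adjusted p = 0.0291). Leaving out Pax5-Etv6 replicate 2 (adjusted p = 0.0855) or 3 (0.108) or control replicate 1 (0.092) or 2 (0.056) ended the call, as did a fit without the trend (0.0545), in a range of 0.0101 to 0.108. The deposited names of both genes carry a tag that reads as overlap with another gene, as do those of Ptprs and Ptpn9, so reads shared with a neighbour cannot be told apart.

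CD45 itself, the Ptprc product, did not pass the test. Its level was 148, 129.6 and 136 TPM in Pax5-Etv6 and 114 and 119.6 TPM in control B-ALL. Every Pax5-Etv6 value lay above both controls by a small margin (0.24 ± 0.14, limma adjusted p = 0.183). The mean was 138 ± 9.64 TPM (SD, n = 3) against 117 ± 4.27 TPM (SD, n = 2). Ptprj, or CD148, which shares the action on Src-family kinases in B cells and macrophages, had 46.9, 29.0 and 22.4 TPM against 25.4 and 27.7 TPM. The groups overlapped, with replicate 1 highest and replicate 3 lowest (0.23 ± 0.32, limma adjusted p = 0.565).

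Ptprs, a LAR-family receptor for heparan and chondroitin sulphate proteoglycans, was lower in Pax5-Etv6 B-ALL and was the member that varied most among the called genes. It had 23.0, 79.5 and 65.7 TPM against 116 and 195 TPM. Replicate 1 had less than the other Pax5-Etv6 libraries by a factor of 3.45 from highest to lowest, and the controls differed by a factor of 1.69. The difference (-1.58 ± 0.53, limma adjusted p = 0.0454) was lost without Pax5-Etv6 replicate 3 (adjusted p = 0.053) and without control replicate 1 (0.111) or 2 (0.232), and the alternatives ran from 0.0199 to 0.232. Without Pax5-Etv6 replicate 1 it was -1.05. No filter ended it too (0.09995), as did fits without the trend (0.0639), under rescaling without the highest genes (0.0506) and with voom (0.05001). Ptprv, listed by RefSeq as a transcribed pseudogene, had 0.288, 1.30 and 1.19 TPM against 2.09 and 3.19 TPM. It was lower in each Pax5-Etv6 library but was not called (-0.95 ± 0.37, limma adjusted p = 0.0734), except under quantile normalization (0.0266, the lowest of a range to 0.335).

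**Figure D2:**
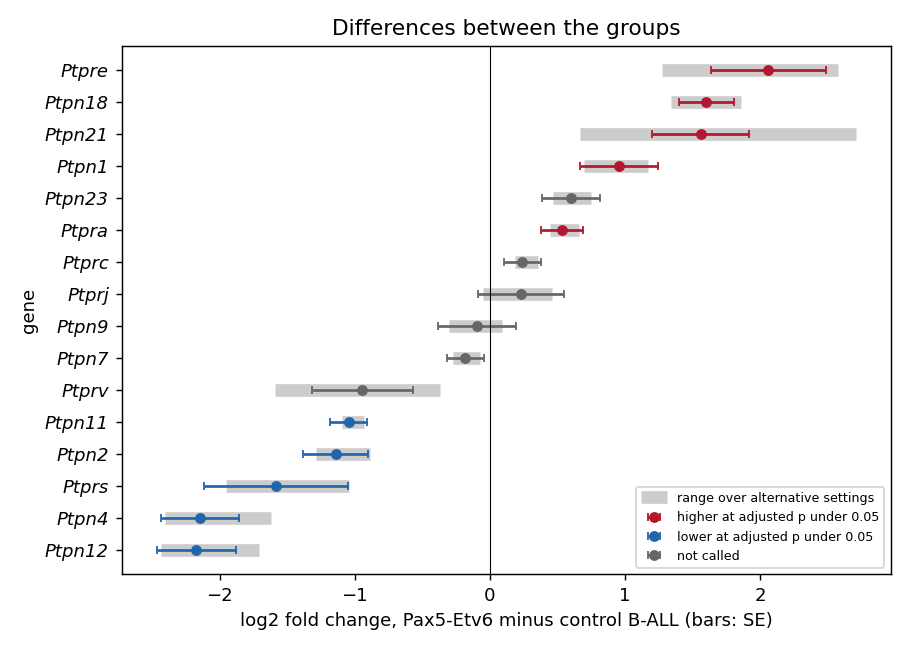
Log2 fold change of log2(TPM + 1), Pax5-Etv6 minus control B-ALL, for the 16 tested members, with SE bars and grey bands for the range over the alternative settings. The 5 called higher (red) run from 0.53 to 2.06 and the 5 called lower (blue) from -2.17 to -1.05, and the bands of Ptpn9 and Ptprj cross 0.

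The ratio of members within a library does not depend on scaling between libraries. It was taken for each subfamily with exactly 2 tested members in this set, which leaves out Ptpn6 and Ptpn22. The member with the larger log2 fold change was made the numerator, so the direction of each ratio was set by these same data and is not a result. Ptpn18 exceeded Ptpn12 by 27.1, 36.7 and 40.9 times in Pax5-Etv6 replicates 1, 2 and 3 and by 1.53 and 3.20 times in the controls. The lowest Pax5-Etv6 ratio was thus 8.46 times the higher control ratio. Ptpn1 exceeded Ptpn2 by 22.0, 12.8 and 10.4 times against 2.40 and 4.02 times. For the FERM members Ptpn21 and Ptpn4 the ratio was 0.461, 0.684 and 1.43 against 0.0184 and 0.0369, the widest gap of the 5 pairs, with a ratio of geometric means of 29.4. The ratio of Ptpre to Ptpra was 0.0895, 0.161 and 0.193 against 0.0463 and 0.0283, although both genes moved the same way. Ptprj to Ptprv gave 163, 22.3 and 18.8 against 12.2 and 8.69, with replicate 1 standing apart. The groups did not overlap in any of the 5 pairs, but 72.2% of single genes do not overlap either, and for Ptpn18 and Ptpn12, Ptpn1 and Ptpn2, and Ptpn21 and Ptpn4 the separation of both genes in opposite directions fixes that of the ratio. An exact two-sided permutation test of each ratio, which counts the smaller tail 2 times, gave p = 0.2. That is the smallest value this form of the test allows with 3 against 2 libraries, so it cannot pass a threshold of 0.05.

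**Figure D3:**
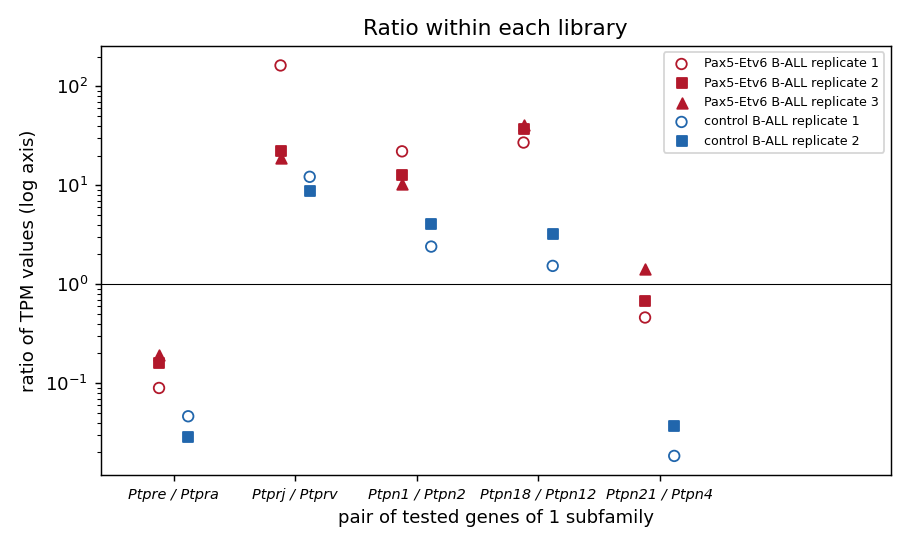
Ratio of the TPM values of 2 tested members of a subfamily within each library (log axis), red for Pax5-Etv6 B-ALL and blue for control B-ALL, with a line at 1. The Ptpn18 to Ptpn12 ratio is 27.1 to 40.9 in Pax5-Etv6 and 1.53 to 3.20 in control B-ALL.

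Of the 16 tested members, the Pax5-Etv6 libraries differed most among themselves in Ptprv, Ptprs, Ptpre, Ptpn21 and Ptprj, whose highest value was 4.52, 3.45, 2.64, 2.29 and 2.09 times the lowest. Replicate 1 was lowest of the 3 in 8 of 16 tested members, among them Ptprs, Ptpre and Ptpn21, and highest in 5, among them Ptpn1 and Ptprj. Over all genes tested it was lowest in 56.3% and highest in 23.4%. Ptpn11 and Ptpn7 were the steadiest members, with factors of 1.05 for each.

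**Figure D4:**
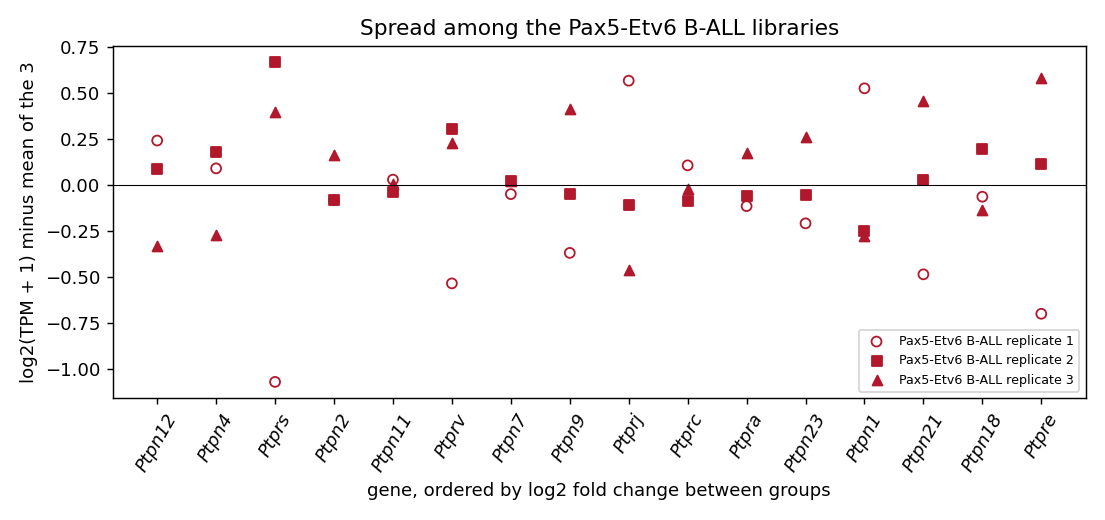
Deviation of each Pax5-Etv6 B-ALL library from the mean of the 3, as log2(TPM + 1), for the 16 tested members in the order of their fold change between groups. Replicate 1 (open circles) is below the others in Ptprs, Ptpre and Ptpn21 and above them in Ptpn1 and Ptprj.

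The remaining 20 members were near or at 0 in these leukaemias and were not tested. Ptprh, Ptprq and Ptprt were listed at 0 TPM in all 5 libraries. Ptpn20 and Ptprr were above 0 in 1 control library each, at 0.0467 and 0.0405 TPM. The secretory-granule proteins encoded by Ptprn and Ptprn2, which lack phosphatase activity, reached at most 0.116 and 0.0939 TPM. Ptprd, Ptprf, Ptprg, Ptprk, Ptpro, Ptpru and Ptprz1 reached at most 0.36 TPM, and Ptpn5, a brain-enriched MAP kinase phosphatase, at most 0.398 TPM.

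The highest of these members were receptor types of vessels and cell contacts. Ptprm, which mediates adhesion between like molecules, had 0.116, 1.07 and 0.26 TPM in Pax5-Etv6 and 0 and 0.0293 TPM in control B-ALL. Ptprb, the endothelial phosphatase VE-PTP, had 0.0232, 0.638 and 0.231 TPM, from 1, 23 and 12 reads, and 0 in both controls, where 3 reads would give 0.0363 and 0.0617 TPM. Replicate 2 was the highest Pax5-Etv6 library in both, and in 10 of the 15 untested members that were above 0 in that group. Over all genes tested, which are more abundant, it was highest in 31.1%. It also had the fewest recovered reads, so each read weighs most there: 3 reads of Ptprb give 0.0697, 0.0832 and 0.0576 TPM in replicates 1, 2 and 3. A count over members with few reads is thus tilted towards replicate 2. Of 7 endothelial markers, 1 of 4 tested was called higher. Their sum was 234.6 to 299.8 TPM in Pax5-Etv6 and 79.2 and 83.8 TPM in control B-ALL. Most of it was Pecam1, the gene called, at 233, 222 and 293 TPM in replicates 1, 2 and 3 against 76.9 and 79.9 TPM. The sum followed Pecam1 and was highest in replicate 3. By contrast Cdh5, Kdr, Tek, Tie1, Emcn and Flt1 were each highest in replicate 2 of the Pax5-Etv6 libraries. Tie1 and Emcn were at 0 in both controls, and Cdh5, at 0.533, 8.45 and 3.14 TPM against 2.26 and 3.87 TPM, overlapped between the groups. Stromal and macrophage marker sums were also highest in replicate 2. The part of endothelial, stromal and macrophage cells in the levels of Ptprm and Ptprb was not tested.

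Kinases and adaptors on which these phosphatases act were followed as lists. All 11 tested JAK and STAT genes, which include substrates of Ptpn1 and Ptpn2, rose, with a median log2 fold change of 1.28, against 21.9% of all genes called higher. This count was 11 under the 3 other scalings, but 8 without Pax5-Etv6 replicate 2 or 3. In those fits fewer genes of the whole table were called higher too, 1964 of 11456 and 1920 of 11447, against 2588 of 11805 in the main fit. Without control replicate 1 or 2 the median log2 fold change of the list was 1.24 and 1.31. Stat4, of interleukin-12 signalling, had 3.59, 13.3 and 24.7 TPM against 0.21 and 0.192 TPM (3.31 ± 0.69, limma adjusted p = 0.00899). Its call was lost without control replicate 1 (adjusted p = 0.0706) or 2 (0.054), and the alternatives ran from 0.0006 to 0.0706. Its change was 1.68 with a pseudocount of 5 TPM and 5.82 with voom. The cytokine-receptor kinase Jak3, whose name carries the overlap tag, had 80.1, 98.2 and 93.3 TPM against 10.8 and 17.8 TPM.

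Of 26 tested Src-family and other substrate kinases and adaptors, 13 rose, 3 fell and 10 were not called, with a median of 0.63. That is 61.5% called, against 51.7% of all genes (21.9% higher and 29.7% lower). Without control replicate 1 or 2 the median was 0.52 and 0.74. Lck, a Src-family kinase controlled by CD45, had 181, 465 and 428 TPM against 6.80 and 11.9 TPM (5.04 ± 0.45, limma adjusted p = 0.000651), and its name carries the overlap tag. By contrast Yes1 fell from 47.2 and 16.5 TPM in the controls to 0.0401, 0.143 and 0.0497 TPM (limma adjusted p = 0.000768). The focal-adhesion kinase Ptk2 fell to 2.63, 0.64 and 0.382 from 17.7 and 23.8 TPM (limma adjusted p = 0.00214).

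Of 14 tested MAP kinases and MAP kinase kinases, 3 rose and 7 fell, although median-of-ratios scaling gave 5 and 4 and quantile normalization 6 and 4, so the split depends on scaling. In all 71.4% were called, against 51.7% of all genes. Without Pax5-Etv6 replicate 2 or 3 the split was 3 and 4, in fits where 41.9% and 42.7% of all genes were called. The median log2 fold change of the list was -0.33, and -0.05 and -0.40 without control replicate 1 or 2. ERK1, encoded by Mapk3, was 94.6, 130.2 and 127 TPM against 37.0 and 55.3 TPM, and Mapk7 was 61.5, 70.1 and 70.5 against 19.4 and 37.7 TPM. Both were called higher (limma adjusted p = 0.00497 and 0.011), and the log2 fold change of Mapk7, 1.28, was 0.82 without control replicate 1. The p38 genes Mapk12 (0.391, 0.291 and 0.363 against 18.9 and 19.8 TPM) and Mapk11 (3.63, 1.85 and 2.53 against 11.7 and 21.1 TPM) were called lower.

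Of 18 tested genes of other phosphatase families that act on tyrosine, or are related to those that do, 4 rose, 6 fell and 8 were not called. The 55.6% called is near the 51.7% of all genes. Without Pax5-Etv6 replicate 1 the counts were 6 and 5, in a fit where 54.2% of all genes were called. The median log2 fold change of the list was -0.34, and -0.12 and -0.11 without control replicate 1 or 2. Ptp4a3, a prenylated phosphatase known as PRL-3, had 315, 471 and 507 TPM against 101 and 153 TPM (1.76 ± 0.27, limma adjusted p = 0.00315). Its relative Ptp4a2 was lower, at 160.5, 149 and 144 against 404 and 246 TPM (limma adjusted p = 0.00936), and its log2 fold change of -1.06 was -0.70 without control replicate 1. Ssh2, which acts on cofilin, rose by 1.73 ± 0.18 (limma adjusted p = 0.00106), and the mitochondrial Ptpmt1 fell by 1.36 (limma adjusted p = 0.012). The Ptpmt1 call was lost without control replicate 1 (adjusted p = 0.0661) or 2 (0.0655), with 0.00692 the lowest.

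Of 13 tested ligands and partners, 4 rose, 3 fell and 6 were not called, and the 53.8% called is near the 51.7% of all genes. The median log2 fold change of the list was 0.27, and 0.30 and 0.68 without control replicate 1 or 2. Lgals3, a galectin also made by macrophages, had 12.5, 51.3 and 12.1 TPM against 1.64 and 1.86 TPM. It was highest in replicate 2, as were the macrophage markers, and its call (2.93 ± 0.63, limma adjusted p = 0.00964) was lost without control replicate 1 (adjusted p = 0.0757) or 2 (0.0519), with 0.00446 the lowest. The part of macrophages in the Lgals3 level was not tested. Trio, a guanine nucleotide exchange factor that binds LAR-family receptors, rose by 1.89 ± 0.33 (limma adjusted p = 0.00488). Ctnnb1, the beta-catenin gene, fell by 1.00 (limma adjusted p = 0.0147), with the overlap tag in its name. The controls differed (629 and 359 TPM), and the change was -0.59 without control replicate 1.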

How the data were processed

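Expression values were deposited by the authors as TPM, 1 table per library, each summing to 1000000 over 24726 entries, per the file headers and the values. The build mm9 and the tools DESeq2 1.4.1 and HTSeq 0.5.3 are listed, without roles, per the submitters' processing notes. No aligner or gene model is named there. Tags in gene names read as overlap or duplicate; their meaning is likewise not given. The 2 chromatin immunoprecipitation samples were not analysed here.

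Whole reads were recovered from the TPM values: all 16538 entries that could be compared (above 0 in 2 or more libraries) gave multiples of 1 read, within 1e-06. These reads are lower bounds; they gave the depth, a floor of 3 reads, and a voom fit.

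Entries reaching 1 TPM in 2 or more of 5 libraries entered a fit of limma 3.58.1 (R 4.3.3) to log2(TPM + 1), using lmFit and eBayes with trend (two-sided, 3 residual degrees of freedom, no covariates), with Benjamini-Hochberg adjustment over all 11805 genes and a threshold of 0.05. The fit was tested on simulated data. Libraries were grouped by genotype and numbered in accession order.

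Members and lists were chosen with earlier results of these data known. Members that were called or had a mean of at least 10 TPM are given in every library, as is Ptprv, and from each context list the up to 2 called genes per direction with the largest change are named, if the group where they are higher averages 10 TPM or more; 1 gene that meets this rule is not reported here. Marker genes, Ptprb and Ptprm in every library, and voom for Ptpn21 were added after their values were seen. Promoters were matched by symbol to RefSeq (GRCm38.p6), with 250 bases before and 50 after each start. As alternatives, the pseudocount was 0.1 or 5 TPM, the filter was dropped or raised to 5 TPM, and further fits used 3 other scalings, no trend, robust empirical Bayes, voom, leaving out each library, and, chosen after seeing the data, leaving out tagged entries.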

Additional observations from a re-analysis of the deposited data

How the results depend on the processing

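Of 250 values of the 16 tested members under alternative settings, 217 kept their direction and their side of the threshold, 20 lost a call, 8 gained one and 5 changed sign. The calls of Ptpn11, Ptpn12, Ptpn18 and Ptpn4 were the 4 kept under all settings. Sign changed in genes that were not called: the log2 fold change of Ptpn9 was 0.0535 under quantile normalization, 0.0211 with voom, and -0.304 to 0.0886 when each library was left out, above 0 without Pax5-Etv6 replicate 1 (0.0886) and control replicate 1 (0.0118). That of Ptprj was -0.0540 to 0.462, below 0 without Pax5-Etv6 replicate 1. Without the mean-variance trend 3 members were called higher, and without tagged entries, where 12 members were tested, also 3. Leaving out each Pax5-Etv6 library in turn gave 4 to 6 members higher and 4 to 5 lower. Over all genes it gave 3364 to 6334 calls, 1410 to 2984 higher and 1954 to 3350 lower. Fewer samples enter these fits; otherwise the cause was not tested. The voom scale moved the median over all genes by 0.11. No paired analysis was possible, because no label links a Pax5-Etv6 library to a control library. The labels also give no replicate numbers. The 20 untested members rest on few reads, and 3 of them had none in any library.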
